A study of Mus musculus with 2 samples.

Results

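Osteoclasts are bone-resorbing cells that arise when macrophage precursors fuse with each other under M-CSF and RANKL. The 10 genes described here encode the fusion proteins Dcstamp and Ocstamp, the resorption enzymes Acp5 and Ctsk, the proton pump subunit Atp6v0d2, the calcitonin receptor Calcr, the transcription factor Nfatc1, the receptors Oscar and Trem2, and the adaptor Tyrobp. They are 10 of the 22910 genes that could be named on the array, and 15 of its 56598 gene probes measure them. The probes were picked by the transcript accession each one carries. The genes were put on this list with their difference between both cell types already known, so every value below is a description and carries no test.

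The study grew macrophages from bone marrow of C57BL/6 mice in medium with 100 ng/ml recombinant human M-CSF. Primary macrophages were monocyte-derived cells at day 5, and self-renewing macrophages were the cells after passage 4, which by the methods grew out as colonies when most others stopped dividing. The methods use such cells in bulk, not as clones, unless they say otherwise, and neither label names RANKL. Each cell type has 1 array, so time in culture and passage differ together with the cell type, values have no replicate error, and the number of arrays limits their precision.

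A level is the background-subtracted intensity of a spot, or its log2 relative to the 75th percentile of the gene probes of that array. This percentile was an intensity of 433.6 for primary and 446.1 for self-renewing macrophages. Each difference is self-renewing minus primary on this log2 scale. A probe is called detected where the scanner software marked it as well above background. The dimmest such reading was 11.8 for primary and 13.2 for self-renewing macrophages, and saturation was met by 0 spots. The errors at hand are technical: the scanner software put 10.0% on bright spots, and across 5077 genes with several detected probes, the probes of a gene scattered by an SD of 0.319 in their log2 differences. Both samples are labelled male. Yet 4 of 6 Y-linked genes were detected in self-renewing macrophages and 0 in primary macrophages, while Xist was detected in primary macrophages alone. Sex and cell type therefore cannot be told apart in what follows.

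Macrophages fuse after cell contact, with DC-STAMP and OC-STAMP on the fusing membranes. RANKL acts through RANK (Tnfrsf11a) and TRAF6, and receptors paired with the adaptors DAP12 (Tyrobp) or the Fc receptor gamma chain (Fcer1g) add a calcium signal through their ITAM motifs. Both inputs lead to NFATc1, which switches on genes for fusion, acid secretion and matrix digestion. Trem2 with Tyrobp is also a lipid receptor of macrophages outside bone.

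Of the 10 genes, 9 were detected on both arrays and Calcr on neither. Dcstamp, Acp5 and Atp6v0d2, 3 genes, were lower by 2-fold or more in self-renewing macrophages. Of all 15492 genes detected on 1 or both arrays 8.38% were that much lower, and of the 14003 detected on both 5.58%. Dcstamp and Acp5 were also lower by 5-fold or more, against backgrounds of 2.93% and 1.44%. Higher by 2-fold or more were 0 of the 10 genes, against 4.77% and 4.2%, and higher by 5-fold or more again 0, against 1.03% and 0.786%. As this contrast chose the genes, nothing is read from these counts. Nearest to the 2-fold limits were Ocstamp at -0.91 and Ctsk at 0.85, both within them, and Atp6v0d2 at -2.16, beyond them. The median over the 9 genes was -0.15 log2, and over all genes detected on both arrays 0.01 log2. The table that the authors scaled places every gene 0.19 log2 higher in self-renewing macrophages. On that scale the median of the 9 genes was 0.04 log2, and 1067 genes of the array were lower and 1036 higher by 2-fold or more, where the scale used here gave 1298 and 739.

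**Figure D1:**
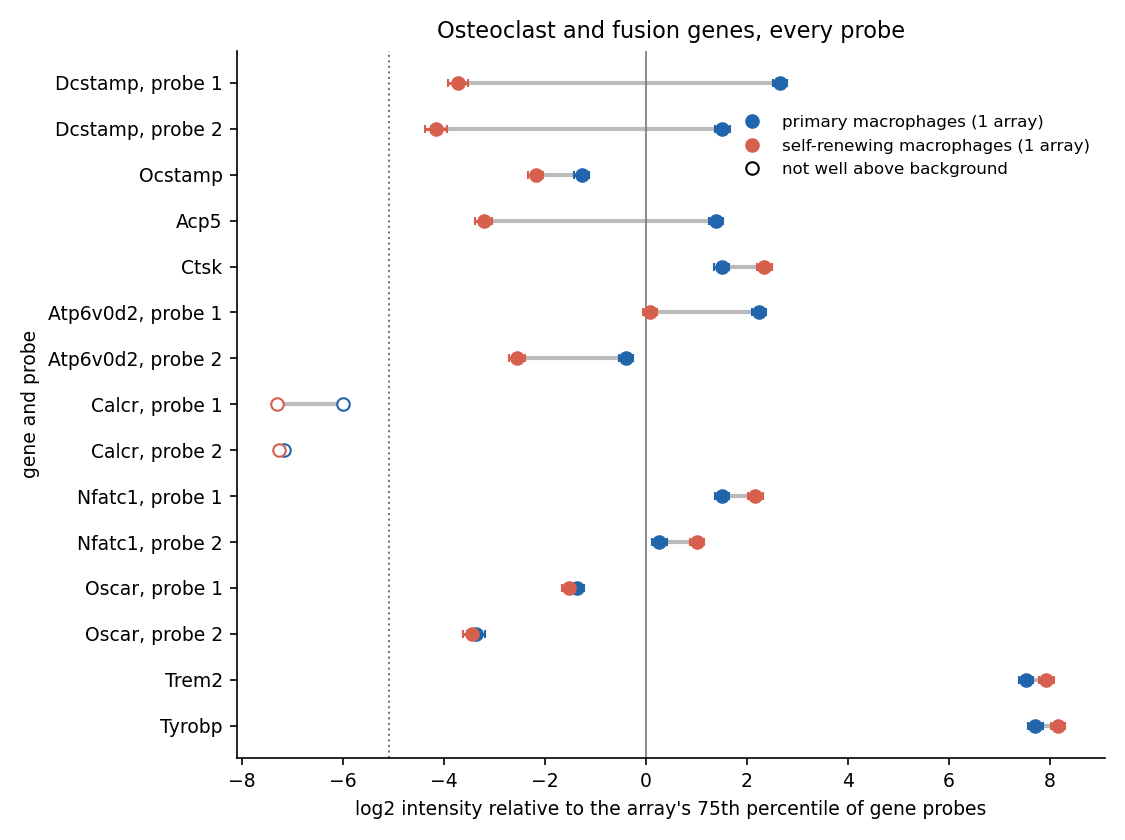
Log2 intensity of each of the 15 probes relative to the 75th percentile of gene probes on its array, for primary (blue) and self-renewing macrophages (red), 1 array each; bars are the scanner software's error of a spot, open circles are readings not well above background, and the dotted line is the lowest level well above background of the self-renewing array, -5.08. Both Dcstamp probes and the Acp5 probe lie above 0 in primary and below -3 in self-renewing macrophages, and Trem2 and Tyrobp lie above 7 in both.

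Dcstamp, a membrane protein required for the fusion of osteoclasts and foreign-body giant cells, differed most among the 10. Its brighter probe read an intensity of 2724 in primary and 33.7 in self-renewing macrophages, and its other probe 1235 and 25.1. All 4 readings were detected, and the primary macrophages were the high ones on both probes. The differences were -6.38 log2, or 83.1-fold lower, with a scanner error of 0.24 log2, and -5.66 log2, or 50.6-fold lower, with 0.26 log2. Among the 14003 genes detected on both arrays, Dcstamp ranked 8 from the lowest.

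Ocstamp, which acts with Dcstamp in fusion, is measured by 1 probe. It read 179.8 in primary and 98.2 in self-renewing macrophages. The difference of -0.91 log2, or 1.88-fold lower, with a scanner error of 0.21 log2, ranked 880 from the lowest. Self-renewing macrophages thus kept 53.1% of the primary Ocstamp level and 1.2% of that of Dcstamp by its brighter probe. In RNA from a whole culture, fewer expressing cells and less RNA in each cell cannot be told apart.

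Of 24 other genes listed for macrophage fusion, 23 were detected on 1 or both arrays. By 2-fold or more, 3 of them were lower and 2 higher in self-renewing macrophages, against 8.38% and 4.77% of all genes so detected. The median of the 23 was -0.13 log2, where a gene detected on 1 array enters at its bound here and in all lists. The lower ones included Ccr2, the receptor of CCL2, which went from an intensity of 3634 to 37.5, or -6.64 log2. Cd36, a scavenger receptor with a part in fusion, went from 16308 to 2273, or -2.88 log2. Cd200, a ligand on the cell surface, was detected in primary macrophages alone, at 181.7, and was lower by at least 14.2-fold. The higher ones were Dock5, an activator of Rac, at 1.19 log2 and 0.82 log2 by its other probe, and the tetraspanin gene Cd81, at 1.05 and 1.23 log2. Cd47 and its receptor Sirpa, a pair that marks cells as self, were at -0.07 and 0.18 log2. Cd44, a hyaluronan receptor, gave -0.45 log2 by its brightest probe and -0.01 and -0.91 log2 by the others, and Cd9, a tetraspanin gene, -0.16 log2.

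The resorption enzymes differed in opposite directions. Acp5 encodes tartrate-resistant acid phosphatase (TRAP), the enzyme whose stain marks osteoclasts. Its probe read 1131 in primary and 48.0 in self-renewing macrophages, which kept 4.12% of the primary level. The difference of -4.60 log2, with a scanner error of 0.22 log2, ranked 33 from the lowest. Ctsk encodes cathepsin K, the protease that cuts bone collagen. Its probe read 1226 in primary and 2268 in self-renewing macrophages. The difference of 0.85 log2, or 1.80-fold higher, with a scanner error of 0.20 log2, ranked 788 from the highest, and on the authors' scale it was 1.03 log2. Each enzyme rests on 1 probe.

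Related enzymes were spread over both directions. Acp2, a lysosomal acid phosphatase, was at 1.09 log2. The cathepsin genes Ctss and Ctsb were at 0.07 and -0.10 log2, and Ctsl at -1.82 log2. Ctss is also the gene next to Ctsk in genome order. Over 12 close relatives of the 10 genes, all detected, the median was 0.14 log2. By 2-fold or more, 1 was lower and 1 higher, against 8.38% and 4.77% of all genes detected on 1 or both arrays.

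Promoter windows were searched for 5 of the 10 genes, running from 250 bases before a start site to 50 bases after it. Windows of the other genes, Nfatc1 among them, were not searched. Those of Acp5 and Ctsk are printed to set side by side the motif content of 2 enzymes that differed in opposite directions. The sequences are from RefSeq, build GRCm38.p6, 5′ to 3′ on the strand of the gene. Capitals mark matches on either strand to the motifs TGANTCA (AP-1) and GAGGAA (PU.1), and to the E-box CACGTG or its variant CATGTG, to which MITF family factors can bind.
Acp5, start site 3 and the farthest downstream of its 3, chr9:22130549-22130848, minus strand: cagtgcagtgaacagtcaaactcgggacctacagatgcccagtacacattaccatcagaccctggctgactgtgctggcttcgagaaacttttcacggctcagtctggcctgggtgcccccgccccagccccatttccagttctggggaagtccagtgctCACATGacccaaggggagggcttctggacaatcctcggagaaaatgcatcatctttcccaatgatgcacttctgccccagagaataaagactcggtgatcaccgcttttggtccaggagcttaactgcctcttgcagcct
Ctsk, chr3:95498960-95499259, plus strand: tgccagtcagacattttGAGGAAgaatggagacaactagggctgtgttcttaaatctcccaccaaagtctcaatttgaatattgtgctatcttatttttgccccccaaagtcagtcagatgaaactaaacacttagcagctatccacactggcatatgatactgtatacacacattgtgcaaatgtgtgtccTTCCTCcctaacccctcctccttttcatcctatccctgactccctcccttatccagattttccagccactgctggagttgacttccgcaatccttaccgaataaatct
With -1 as the last base before the start, the Acp5 window held 1 CATGTG match, on the opposite strand from position -90, and no other marked motif. The windows at the other 2 Acp5 start sites held 0 marked matches. The Ctsk window held 2 GAGGAA matches, from -233 on the strand of the gene and from -58 on the opposite strand. Of 32851 promoter windows of this length, 7.81% hold the AP-1 motif, 28.3% the PU.1 motif, 7.15% the E-box and 14.2% its variant. The core of NFAT sites, GGAAA, was searched too and left unmarked, as 61.3% of windows hold it. Which start site these transcripts used was not tested.

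Atp6v0d2, a subunit of the proton pump that is enriched in osteoclasts and also takes part in fusion, was lower by the same amount on both its probes. The brighter one read 2041 in primary and 470.7 in self-renewing macrophages, and the dimmer one 330.1 and 76.1. Each gave -2.16 log2, or 4.46-fold lower, with scanner errors of 0.20 and 0.21 log2, and the gene ranked 233 from the lowest. Of 24 other genes for subunits and accessory proteins of the V-ATPase, 21 were detected on 1 or both arrays. Their differences ran from -0.95 to 0.52 log2 with a median of 0.14 log2. Called 2-fold lower or higher were 0 of them, against 8.38% and 4.77% of all genes so detected. The lowest value is a bound. It belongs to Atp6v0e2, detected in primary macrophages alone, at 24.6, and lower by at least 1.925-fold, so it may exceed 2-fold. With no filter on background 1 of these genes was lower by 2-fold or more. Atp6v0d1, the broadly expressed counterpart of Atp6v0d2, went from 7019 to 8325, or 0.21 log2. Tcirg1, the a3 subunit at the ruffled border of osteoclasts, went from 43031 to 32479, or -0.45 log2. Probes disagreed for Atp6v1g2, a G subunit gene, with -0.53 log2 by the brighter, while the other was detected in primary macrophages alone and was lower by at least 4.09-fold.

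Of 12 listed genes of acid secretion and resorption, 10 were detected on 1 or both arrays, with a median of 0.01 log2. Lower by 2-fold or more was 1, Itgb3, against 8.38% of all genes so detected. The probes of Itgb3, the integrin chain with which osteoclasts attach to bone, disagreed in size. The brighter one read 1205 in primary macrophages and was not well above background in self-renewing macrophages, a bound of at least 94.2-fold lower for that probe. The other was detected on both arrays, at 39.4 and 14.8, and gave 2.73-fold lower, or -1.45 log2, so the size for the gene is unsettled. The chloride channel gene Clcn7 was at -0.19 log2. The kinase gene Src was at -0.56 log2 and 0.18 log2 by its other probe. Mmp9, a secreted metalloproteinase, read 18.5 and 20.6, close to background, and was at 0.11 log2. Car2, the carbonic anhydrase that supplies protons, was detected on neither array.

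**Figure D2:**
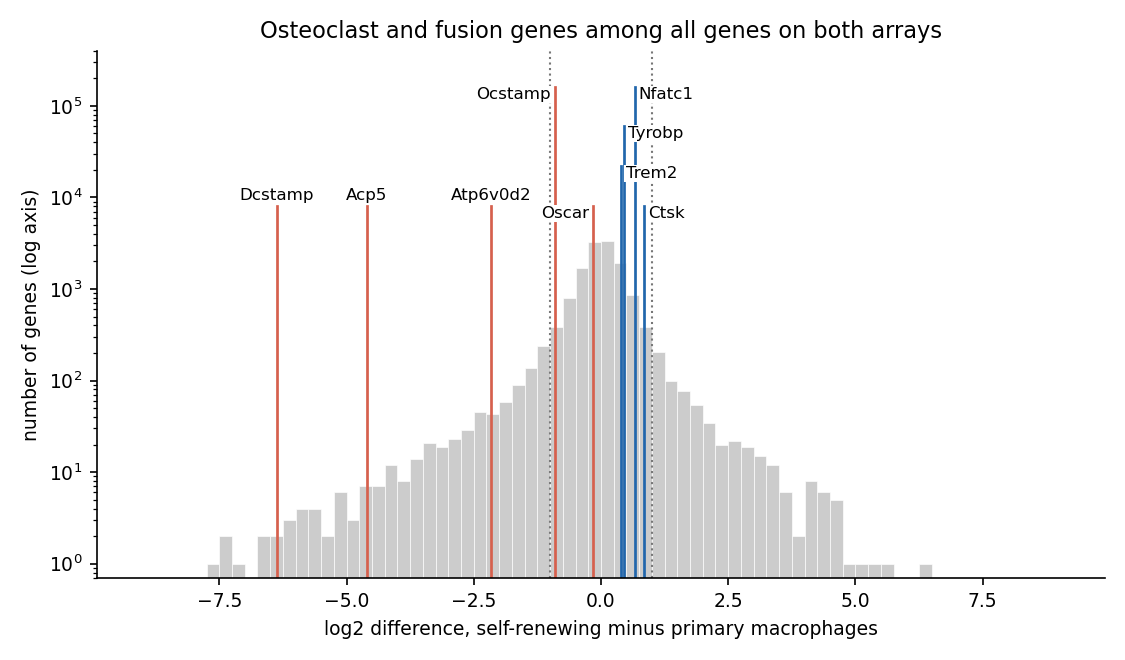
Number of genes (log axis) by log2 difference, self-renewing minus primary, in steps of 0.25, for 14003 genes well above background on both arrays; coloured lines mark 9 of the 10 genes (red lower, blue higher; their height has no meaning), and dotted lines mark 2-fold. Dcstamp, Acp5 and Atp6v0d2 lie in the lower tail at -6.38, -4.60 and -2.16, and the other 6 lie within 2-fold.

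Nfatc1, the transcription factor at the head of the osteoclast programme, was higher in self-renewing macrophages on both its probes, which carry accessions of different transcripts. The brighter one read 1229 in primary and 1999 in self-renewing macrophages, and the other 520.2 and 896.9. The differences were 0.66 and 0.75 log2, or 1.58-fold and 1.68-fold, each with a scanner error of 0.20 log2. Its relative Nfatc2 was at 0.61 log2, and Nfatc3 and Nfatc4 were at -0.22 and -0.23 log2. All 9 listed genes for factors that promote osteoclast formation were detected on 1 or both arrays. Called 2-fold lower or higher were 0 of them, against 8.38% and 4.77% of all genes so detected. The median of the 9 was 0.23 log2. Among them, Fosl1 was detected in primary macrophages alone, at 22.7, and was lower by at least 1.78-fold, so it may exceed 2-fold. With no filter on background 1 of the 9 was lower by 2-fold or more, and on the authors' scale 1 was higher. Mitf gave 0.43, 0.47 and 0.52 log2 by its 3 probes. Spi1, which encodes PU.1, was at 0.23 log2, Fos at -0.48 log2 and Prdm1, a repressor of anti-osteoclast genes, at -0.04 log2.

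Of 6 genes for factors that hold osteoclast formation back, 2 were higher by 5-fold or more. Of all genes detected on 1 or both arrays 1.03% were that much higher. The median of the 6 was 0.64 log2. Id3 went from an intensity of 50.8 in primary to 1236 in self-renewing macrophages, or 4.56 log2, and Id1 from 170.4 to 1590, or 3.18 log2. Both encode proteins that keep helix-loop-helix factors off DNA. Irf8 was at -0.07 log2 and Bcl6 at 0.44 log2.

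Upstream of Nfatc1, 15 of 17 genes of RANK signalling were detected, with a median of 0.35 log2. By 2-fold or more, 0 were lower and 2 higher, against 8.38% and 4.77% of all genes detected on 1 or both arrays. The 2 were Relb at 1.61 log2 (1.76 log2 by its other probe) and Nfkb2 at 1.09 log2 (1.34 log2). They encode the subunits of non-canonical NF-κB. Tnfrsf11a, which encodes RANK, went from 4990 to 9664, or 0.91 log2, but its other probe gave 0.11 log2. Traf6 gave -0.61 and 0.32 log2 by its probes, which leaves its direction unsettled. The RANKL gene Tnfsf11 and the gene of its decoy receptor, Tnfrsf11b, were detected on neither array. Csf1r, the M-CSF receptor gene, went from 113750 to 153276, or 0.39 log2. Its ligand gene Csf1 was at -1.88 log2 by the brightest probe, and another, detected in primary macrophages alone, was lower by at least 1.16-fold.

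Oscar, a collagen receptor that co-stimulates osteoclast precursors through the Fc receptor gamma chain, had the smallest difference of the 9. Its brighter probe read 168.3 in primary and 156.0 in self-renewing macrophages, and its other probe 42.2 and 41.1. The differences of -0.15 and -0.08 log2 were smaller than their scanner errors of 0.21 and 0.25 log2. On the authors' scale Oscar was at 0.04 log2, so its direction is unsettled. Fcer1g, the chain it signals through, was at 0.49 log2.

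Calcr, the receptor by which calcitonin halts resorption, is a gene of mature osteoclasts. One probe read 6.81 in primary and 2.81 in self-renewing macrophages, and the other 3.04 and 2.92. All 4 readings were below the dimmest detected intensity of their array, with scanner errors of 38.8% to 100.3% of the signal, so no fold is given. Of 8 relatives, partners and ligands, 5 were detected on 1 or both arrays, with a median of -0.89 log2. Lower by 2-fold or more were 2, against 8.38% of all genes so detected. These 2 were the receptor partners Ramp2 and Ramp3, detected in primary macrophages alone and lower by at least 2.82-fold and 3.80-fold. The count was 0 with normexp, where the median was -0.40 log2, and 0 with probes detected on both arrays alone, where it was 0.06 log2. The related receptor gene Calcrl was at 0.06 log2.

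Trem2, which binds lipids, and Tyrobp, whose ITAM carries its signal, form a receptor complex. Trem2 read 79734 in primary and 108405 in self-renewing macrophages, and Tyrobp 90694 and 127408. The self-renewing macrophages were the higher ones for both genes, and all 4 readings were under the saturation intensity of 777846. The differences were 0.40 and 0.45 log2, or 1.32-fold and 1.37-fold, each on 1 probe with a scanner error of 0.20 log2. Both exceed the SD of 0.319 log2 between probes of a gene, within which 56.7% of the 14003 genes lay. That SD compares probes on the same arrays and holds no error between cultures or arrays. It therefore cannot show whether either difference would recur. Among 212 genes whose mean level was at least 7 log2 over the 75th percentile, a limit set after the values were seen, the median was -0.06 log2, and 15 genes, Trem2 and Tyrobp among them, were as high as Trem2 or higher. With quantile normalization the pair was at 0.55 and 0.60 log2. The window of Trem2 is printed because it alone, of the 8 windows of the 5 genes, holds a TGANTCA match, with capitals as above.
Trem2, chr17:48346151-48346450, plus strand: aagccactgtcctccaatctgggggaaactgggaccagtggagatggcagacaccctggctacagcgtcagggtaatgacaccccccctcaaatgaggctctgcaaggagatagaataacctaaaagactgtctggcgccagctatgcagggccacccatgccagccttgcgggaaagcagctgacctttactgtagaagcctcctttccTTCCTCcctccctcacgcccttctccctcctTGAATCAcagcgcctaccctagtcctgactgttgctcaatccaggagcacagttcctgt
The TGANTCA match began at position -9, and a GAGGAA match lay on the opposite strand from -40.

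All 18 listed genes of ITAM receptors and calcium signalling were detected on 1 or both arrays, with a median of 0.43 log2. By 2-fold or more, 0 were lower and 3 higher, against 8.38% and 4.77% of all genes so detected. Clec5a, a receptor that pairs with Tyrobp, went from 2524 to 12321, or 2.25 log2, with 2.13 and 2.17 log2 by its other probes. Trem3 was at 1.20 log2. Siglec15, a sialic acid receptor of osteoclasts that signals through Tyrobp, was detected only in the self-renewing culture, at 45.7, and was higher by at least 3.76-fold. The count of 3 was 5 on the authors' scale and 1 with the normexp background correction. Trem1, a receptor related to Trem2, was at 0.49 log2 by its brighter probe, while its other probe was detected in the self-renewing culture alone, at 129.5, and was higher by at least 10.6-fold. The count was 4 by the mean of each gene's probes. Hcst, which encodes the adaptor DAP10 and lies next to Tyrobp in genome order, was at 0.76 log2, and its other probes gave 0.80 to 0.89 log2. The kinase gene Syk, which binds to ITAMs, was at -0.14 log2.

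A list of Trem2 ligands, of enzymes that shed it and of genes that depend on it in other macrophages held 14 genes with a named probe, all detected on 1 or both arrays. By 2-fold or more, 7 were lower and 0 higher in self-renewing macrophages, against 8.38% and 4.77% of all genes so detected. The median of the 14 was -0.87 log2. This list was written with earlier results of these data known, so nothing is read from its counts. Apoe, a lipoprotein and ligand of Trem2, went from an intensity of 19469 to 205.0, or -6.61 log2. Axl, a receptor for apoptotic cells, gave -5.70 log2 by its brighter probe. Its other probe, at 51.1 in primary macrophages and not well above background in self-renewing macrophages, gave only a bound, lower by at least 3.99-fold. Itgax, which encodes CD11c, was at -3.16 log2, and its other probe likewise gave a bound, lower by at least 3.22-fold. Lpl, Fabp5 and Cst7 were at -1.94, -1.78 and -1.22 log2, and Clu was lower by at least 4.55-fold. The remaining 7 lay within 2-fold. Gpnmb, a glycoprotein of lysosomes, was at -0.51 log2, and the sheddase genes Adam10 and Adam17 were at 0.06 and 0.31 log2. Spp1, Cd9 and Cd63 were at -0.09, -0.16 and 0.16 log2, and Lgals3 at -0.08 log2 (-0.62 log2 by its other probe).

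**Figure D3:**
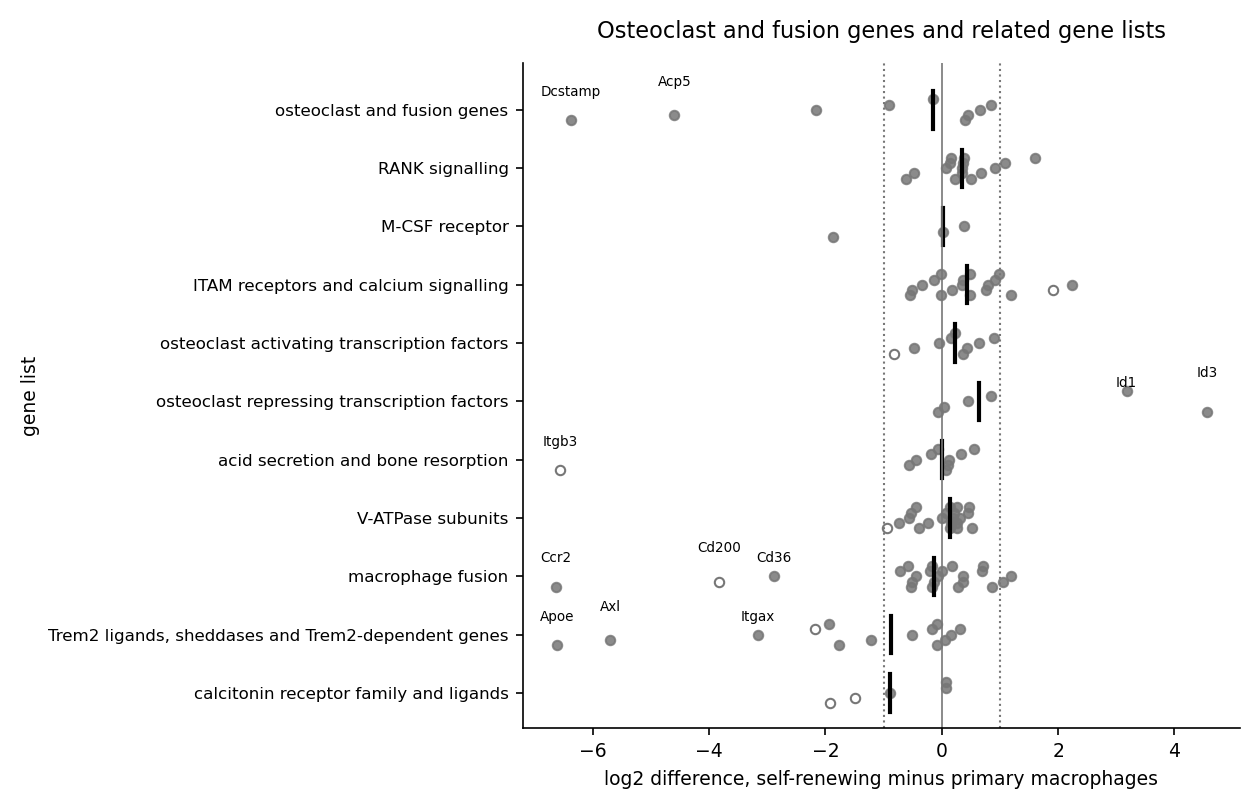
Log2 difference, self-renewing minus primary, of the 10 genes and of 10 related lists, 1 point per gene; open circles are bounds of genes well above background on 1 array only, black bars are medians, dotted lines mark 2-fold, and genes beyond 5-fold are named. The points of the V-ATPase subunits all lie within 2-fold, though 1 of them is a bound. In the Trem2 list 7 genes are lower by 2-fold or more, against 8.38% of all genes well above background on 1 or both arrays.

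In all lists together, 128 of 140 distinct genes were detected on 1 or both arrays, with a median of 0.09 log2. By 2-fold or more, 15 of the 128 were lower and 10 higher, against 8.38% and 4.77% of all genes so detected. The lists were written with earlier results of these data known, so nothing is read from these counts. Genes adjacent to the 10 on the genome had differences of their own. Slc13a3, next to Ocstamp, was at -4.24 log2, while Elof1 and Pigyl, on either side of Acp5, were at -0.33 and -0.23 log2. Tarm1 and Ndufa3, around Oscar, were at 0.03 and -0.02 log2, and of the genes on either side of Trem2, Treml1 was at 0.09 log2 and B430306N03Rik was 4.01-fold lower. Dpys, next to Dcstamp, was detected in primary macrophages alone and lower by at least 4.63-fold.

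Of 11 macrophage markers, all 11 were detected on both arrays, with a median of 0.23 log2 and a summed level of 9.96 log2 in primary and 10.28 log2 in self-renewing macrophages. By 2-fold or more, 2 of them were lower, Fcgr1 at -1.76 and Cd163 at -1.89 log2, and 1 was higher, Mertk at 2.23 log2. Of all genes detected on 1 or both arrays, 8.38% were lower and 4.77% higher by 2-fold or more. By 5-fold or more, 2.93% were lower and 1.03% higher. Markers of other cells differed beside the lower Dcstamp, Acp5 and Atp6v0d2. Of 9 neutrophil markers with a named probe, 8 were detected and 7 were lower by 5-fold or more, with a summed level of 6.90 log2 in primary and 2.71 log2 in self-renewing macrophages, and Retnlg was detected on neither array. Of 6 monocyte markers, all detected, Ccr2, Plac8 and F13a1 were lower and Ly6c2 higher by 5-fold or more, with summed levels of 5.00 and 6.23 log2. Of 9 stromal and osteoblast markers 3 were detected, with summed levels of -1.86 and -1.55 log2, and Col1a1, Alpl, Bglap and Sp7 were detected on neither array. Lymphocyte markers had summed levels of 1.40 and 1.26 log2 with 4 of 6 detected, dendritic cell markers 7.60 and 7.69 log2 with 5 of 6, and 6 of 9 markers of erythroid cells, mast cells and megakaryocytes were detected, 4 of them lower by 2-fold or more. The part of these cells in the differences of the 10 genes was not tested.

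**Figure D4:**
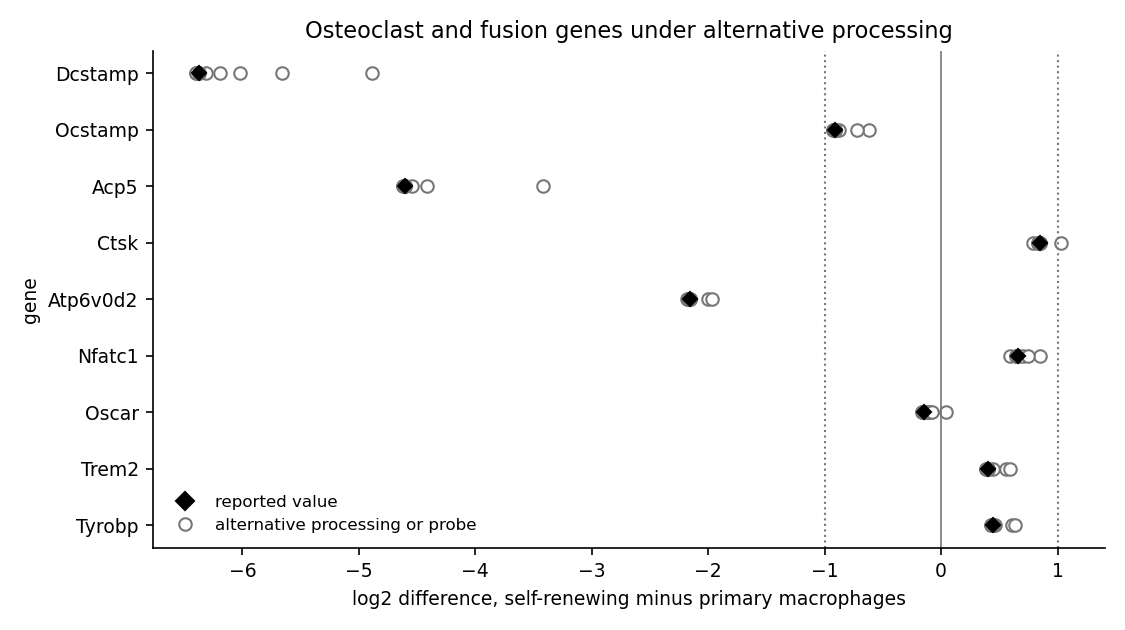
Log2 difference, self-renewing minus primary, of the 9 genes measured on both arrays as reported (black diamonds) and under 9 alternatives in processing or probe (open circles); dotted lines mark 2-fold. Dcstamp ran from -6.39 to -4.88 and Acp5 from -4.62 to -3.42, and of the 9 genes Oscar alone had values on both sides of 0.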

How the data were processed

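RNA of each cell type was hybridised by the authors to 1 Agilent SurePrint G3 mouse array with 1 dye. The deposited scanner files, from Feature Extraction 11.5.1.1, give a background-subtracted intensity for every spot, with flags for background and outliers. A second table deposited by the authors holds each intensity times a constant per array (1.07 primary, 1.19 self-renewing). How these were set is not given in the sources used here. The methods name GeneSpring 12.5.

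Here, log2 intensity was set relative to the 75th percentile of gene probes. Outlier spots (63 gene spots per array) were dropped and a probe's spots averaged. Accessions named 32988 probes (58.3%) through the GRCm38.p6 gene table, used for names and gene order only. The probe with the highest mean signal stood for its gene. Where 1 array alone had a probe well above background, the dim side was set to the larger of its own reading and the dimmest reading well above background there, which gives a bound. With 1 array per group no test was possible.

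The 10 genes and all lists were chosen with earlier results of these data known. The rule for names took the 10 genes, list genes different by 5-fold or more and 27 others fixed by name, of which 1 is not reported here. All other genes were named after their values were seen, to spell out small counts, relatives, probes that disagree, neighbours and markers. Alternatives were normexp (offset 50, median spot signal), 4 scalings, 2 filters and 2 probe choices. Scripts, tested on simulated data, used Python 3.11.15, numpy 2.4.6, pandas 2.3.3, matplotlib 3.10.9, R 4.3.3 and limma 3.58.1.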

Additional observations from a re-analysis of the deposited data

How the results depend on the processing

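No paired analysis was possible because there was only 1 array on either side. A value counts as unmoved if it shifted by under 0.319 log2, the SD between a gene's probes. Under the 9 alternatives, the number of the 10 genes lower by 5-fold or more was 2, and by 2-fold or more 3, or 4 with no filter on background, when Calcr enters at -1.32 log2 and the median of the genes becomes -0.53 log2. On the authors' scale the number higher by 2-fold or more was 1 (Ctsk) among the 10 genes and 16 in the related lists. Of 81 values of the 9 genes, 77 were unmoved, among them that of Oscar on the authors' scale, 0.04 log2, which changed sign. The 4 others were Dcstamp at -4.88 and Acp5 at -3.42 log2 with normexp, and Dcstamp at -6.02 log2 by the mean of its probes and -5.66 log2 by the other probe. Itgb3 ran from -7.37 to -1.45 log2 and Cd200 from -5.88 to -1.82 log2. Axl ran from -5.72 to -3.85 log2, the latter a mean that takes in the bound of its other probe, which alone is at least 3.99-fold lower. The calcitonin list had 0 genes lower by 2-fold or more with normexp, and also when both its bounds were left out, where its median was 0.06 log2. The median of the Trem2 list ran from -0.88 to -0.51 log2. Over all genes, lower and higher by 2-fold or more were 750 and 429 with normexp, 2336 and 1192 with no filter, and 782 and 588 with probes well above background on both arrays, against 1298 and 739.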
